A study of Mus musculus with 3 samples.

Results

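Cycling cardiac macrophages were cells of the steady-state and day 11 heart macrophage libraries that carried both a cell cycle programme and the complement genes of tissue macrophages. A cell was a member when it had 500 or more detected genes, at most 10% of its unique molecular identifiers (UMIs, each standing for 1 captured RNA molecule) from mitochondrial genes, at least 1 UMI in 6 or more of Mki67, Top2a, Birc5, Ccna2, Ccnb2, Cdk1, Cenpf, Ube2c, Nusap1 and Prc1, and a sum of C1qa, C1qb and C1qc of at least 40 per 10000 UMIs. This gave 309 cells, 139 at steady state and 170 at day 11, out of 6440 cells of these libraries that passed the filters and 8207 in the whole series. The members were chosen by measured values, so their cell cycle and C1q levels are given as a description.

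The series holds 3 single-cell RNA libraries of mouse heart cells, captured in droplets and read at the 3′ end, with 1 library per group. The steady-state macrophages came from uninjured hearts and the day 11 macrophages from hearts 11 days after myocardial infarction. Both came from C57BL/6 mice aged 8 to 12 weeks of the genotype Cx3cr1CreER-YFP/+:R26Td/+, in which 1 allele of Cx3cr1 drives a tamoxifen-inducible Cre with a yellow fluorescent protein and the Rosa26 locus holds a Cre-dependent tdTomato. A library of macrophages and dendritic cells of uninjured wild-type C57BL/6 mice of the same age lies outside the rule. The sort gate of the steady-state and day 11 macrophages took live cells positive for CD45, CD64 and CD11b. The transcription inhibitor flavopiridol was present in every digest. The sources used here give neither the number of animals behind each library nor the time of tamoxifen. With 1 library per group no test between groups was possible, no p-value is given, and all intervals are 95% intervals that cover counting error only.

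Macrophages of the heart come from different sources. Resident cells, many of them seeded before birth, can maintain their number by dividing in place and are known for the phosphatidylserine receptor Timd4 and the hyaluronan receptor Lyve1. Cells that derive from circulating monocytes carry the chemokine receptor Ccr2 for some time after entry, and after injury some take on a lipid-handling programme that includes Gpnmb. MHC class II genes (H2-Aa, H2-Ab1, H2-Eb1) serve antigen presentation and are carried by a subset of both kinds. The genes used to find dividing cells act late in the cycle: Cdk1 with its cyclins Ccna2 and Ccnb2 drives entry into mitosis, Top2a untangles DNA, Cenpf sits at kinetochores, Birc5 belongs to the chromosomal passenger complex, Ube2c marks cyclins for destruction, and Nusap1 and Prc1 organise the spindle.

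Genes of this late group are known for a promoter element, the cell cycle gene homology region (TTTGAA), often with CCAAT boxes nearby, through which a repressor complex holds them off in resting cells. The promoters of 6 rule genes are shown because these genes define the cells, from 120 bases before to 20 bases after the RefSeq start on GRCm38.p6, each written 5′ to 3′ on the strand of its gene. Capitals mark TTTGAA or, where it lies on the other strand, TTCAAA. Ccnb2 is at chr9:70421535-70421674 (minus strand), Cdk1 at chr10:69352893-69353032 (minus strand), Cenpf at chr1:189688067-189688206 (minus strand), Top2a at chr11:99024170-99024309 (minus strand), Ube2c at chr2:164769809-164769948 (plus strand) and Birc5 at chr11:117849117-117849256 (plus strand).
Ccnb2: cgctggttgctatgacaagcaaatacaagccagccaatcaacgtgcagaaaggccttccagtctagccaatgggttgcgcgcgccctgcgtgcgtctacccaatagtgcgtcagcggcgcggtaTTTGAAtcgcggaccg
Cdk1: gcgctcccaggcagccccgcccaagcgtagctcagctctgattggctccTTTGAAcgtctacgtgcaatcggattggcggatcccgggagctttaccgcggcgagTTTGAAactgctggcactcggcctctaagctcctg
Cenpf: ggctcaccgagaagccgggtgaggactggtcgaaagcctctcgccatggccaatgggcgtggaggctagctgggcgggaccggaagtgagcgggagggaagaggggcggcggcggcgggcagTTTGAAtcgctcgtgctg
Top2a: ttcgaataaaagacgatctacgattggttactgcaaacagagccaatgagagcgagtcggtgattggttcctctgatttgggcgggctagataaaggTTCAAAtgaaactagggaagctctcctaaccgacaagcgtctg
Ube2c: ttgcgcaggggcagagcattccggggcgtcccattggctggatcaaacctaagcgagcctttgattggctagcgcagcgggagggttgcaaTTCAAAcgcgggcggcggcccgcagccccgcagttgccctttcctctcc
Birc5: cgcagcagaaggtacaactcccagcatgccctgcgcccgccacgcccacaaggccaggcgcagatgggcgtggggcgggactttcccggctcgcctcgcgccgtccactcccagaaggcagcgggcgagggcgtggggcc

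Both motifs were searched on both strands in windows of 300 bases, 250 before and 50 after the start, and they do not overlap each other. A gene counted as holding a motif when any of its listed windows did. TTTGAA was present in 7 of the 9 rule genes with an entry (77.8%) and in 27 of 35 matched genes of a wider mitosis list (77.1%). Of all 27025 genes with an entry, 20.2% held it. Of 29 matched DNA replication genes, 4 held it (13.8%). CCAAT was present in 77.8% of the rule genes, 74.3% of the mitosis genes, 65.5% of the replication genes and 41.1% of all genes with an entry. Birc5 and Nusap1 held neither motif in this window, and Ccna2 had no entry. A match is a string of letters, and binding was not measured.

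The rule cut a range at single-cell level. The number of rule genes detected per cell, which is the value the rule selects on, fell to a low point near the minimum and rose again: at steady state 795 cells had none of the 10, 8 had 5, 9 had 6 and 72 had all 10. At day 11 3254 cells had none, 16 had 5, 23 had 6 and 86 had all 10. Just inside the minimum, cells with 6 genes had a median of 13 rule-gene UMIs at steady state and 15.0 at day 11. Just outside it, cells with 5 genes had 8.50 and 13, so no gap lay at the minimum. Birc5 was detected in 139 of 139 cells at steady state and 169 of 170 at day 11, Mki67 in 133 and 160, Top2a in 127 and 159, and Cenpf, the least often detected, in 105 and 132.

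**Figure D1:**
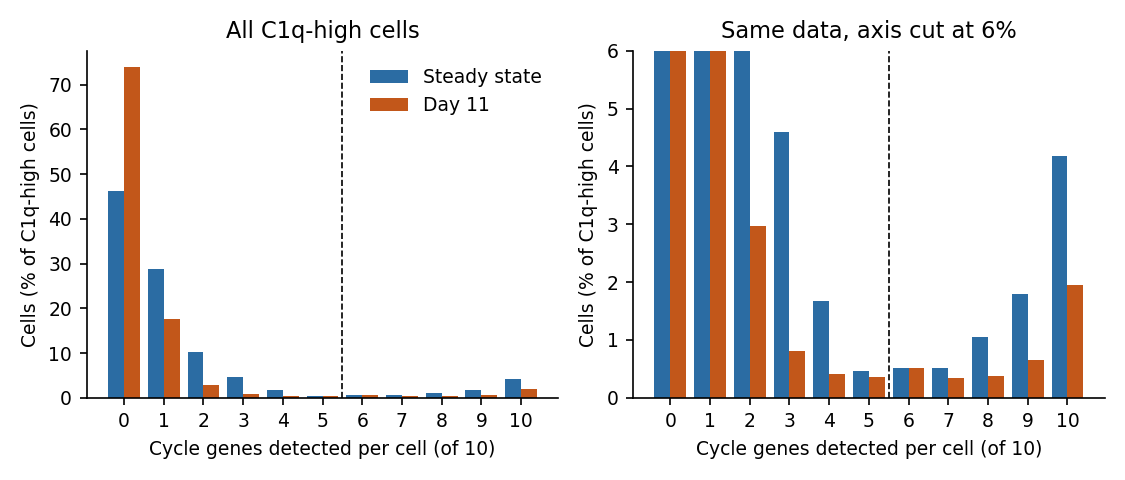
Share of C1q-high cells (vertical axis, percent) by the number of the 10 cycle genes with a UMI (horizontal axis), for the steady-state (blue) and day 11 (orange) libraries, with the same data on a shorter axis at the right. Bars fall to a low point at 5 to 7 genes and rise again at 10, and the dashed line marks the minimum of 6 genes.

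The label of macrophage was set beside markers that the rule did not use. All 12 genes of a macrophage list (among them Csf1r, Adgre1, Cd68, Fcgr1 and Mertk) were at 10 CPM (UMIs of the gene per 1000000 UMIs) or more in the cycling cells of both libraries. The list includes Fcgr1 (CD64) and Itgam (CD11b), on which the cells were sorted. This level does not separate types. In the same steady-state cells 6 of 8 cardiomyocyte, 5 of 10 classical monocyte and 4 of 8 type 1 dendritic cell genes reached it. At day 11 it was 2, 4 and 4 of them. C1q, which the rule selects on, had a median of 184 per 10000 UMIs at steady state (lowest 78.0) and 171 at day 11 (lowest 44.5). After thinning to 5000 UMIs no cycling cell had 3 or more markers of T and NK cells, neutrophils, endothelial cells or fibroblasts, which allows a share of up to 2.19% of 137 steady-state cells and 1.84% of 163 day 11 cells. The mast cell genes Cpa3, Mcpt4, Tpsb2, Ms4a2, Mcpt8 and Gata2 were all at 0 UMIs. At least 3 cardiomyocyte genes were found in 6 cycling cells at steady state and 3 at day 11, at least 3 classical monocyte genes in 3 and 3, and at least 3 B cell genes in 1 and 0. At least 3 non-classical monocyte genes were found more often in cycling cells, in 7.30% (10 of 137) against 2.71% of non-cycling cells at steady state. At day 11 these shares were 3.68% and 2.61%. Of 2 genes of this list at 50 CPM or more in either class, only Spn was at least 2-fold higher in cycling cells, in both libraries. The other gene had log2 ratios of cycling over non-cycling cells of −0.10 at steady state and −0.26 at day 11. Spn reached 50 CPM in cycling cells only, so its call leans on that minimum. Over all genes 6.12% were at least 2-fold higher in cycling cells at steady state and 8.91% at day 11. At least 3 type 1 dendritic cell genes were found in 8.76% of cycling and 13.2% of non-cycling cells at steady state, and in 6.75% and 8.41% at day 11, with Irf8 the highest of them. For type 2 dendritic cell genes these shares were 5.11% and 4.66% at steady state and 1.23% and 3.02% at day 11, and for plasmacytoid dendritic cell genes 4.38% and 5.33%, and 1.23% and 1.64%. The part of such cells in the results below was not tested.

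The dividing share was larger in uninjured hearts. It was 139 of 1722 C1q-high cells at steady state, or 8.07% (exact Clopper-Pearson interval 6.83 to 9.46), and 170 of 4406 at day 11, or 3.86% (3.31 to 4.47), a ratio of 2.09 (1.66 to 2.63). Cells with 2 to 5 of the genes, which were set aside here, made up 17.0% at steady state and 4.56% at day 11. Depth differed between the libraries and between classes: the median was 18316.0 UMIs per cycling cell and 9630.5 per non-cycling cell (0 or 1 of the genes) at steady state, and 14058.5 and 8007.0 at day 11. With every cell thinned to 5000 UMIs and 3 or more of the genes asked for, the shares were 8.95% and 4.78%. The number of dividing cells per heart was not measured, and how far the pool of other macrophages differs between the hearts cannot be told apart from a difference in division.

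Resident markers were common among the dividing cells of uninjured hearts and rare among those of the infarcted hearts. Because a deeper cell shows more genes, each cell was thinned at random to 5000 UMIs, which left out 2 cycling cells at steady state and 7 at day 11. Timd4 (ENSMUSG00000055546, chr11:46810800-46844332, mm10) was then detected in 40 of 137 cycling cells at steady state, 29.2% (21.7 to 37.6), and in 3 of 163 at day 11, 1.84% (0.381 to 5.28). Lyve1 (ENSMUSG00000030787, chr7:110850607-110863239) was detected in 64 cells, 46.7% (38.1 to 55.4), and in 11 cells, 6.75% (3.42 to 11.8). The intervals of the libraries did not overlap for either gene. Without thinning, Timd4 was found in 63.3% and 4.12% of the cycling cells and Lyve1 in 72.7% and 15.3%.

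At steady state the dividing cells carried the resident markers less often than the non-dividing cells of the same library did. Timd4 was found in 39.1% of 1181 non-cycling cells, a difference (cycling minus non-cycling) of −9.9 points (−17.4 to −1.4). Lyve1 was found in 58.6%, a difference of −11.9 points (−20.5 to −3.1), and both genes together in 17.5% of cycling and 31.6% of non-cycling cells (−14.1 points, −20.2 to −6.4). Without thinning these differences had the opposite sign for each gene alone, 9.7 points for Timd4 and 4.4 for Lyve1, with the cycling cells at the greater depth given above. The levels, which depth does not set in this way, were 81.7 CPM of Timd4 in cycling and 122 in non-cycling cells, and 233 and 424 CPM of Lyve1. At day 11 the thinned shares in non-cycling cells were 5.27% for Timd4 (−3.4 points, −4.9 to 0.1) and 10.5% for Lyve1 (−3.7 points, −6.9 to 1.3), and both intervals included 0.

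Ccr2 was the most frequent of the 4 single-gene markers in day 11 dividing cells. It (ENSMUSG00000049103, chr9:124101950-124113557) was detected in 86 of 163 cycling cells, 52.8% (44.8 to 60.6), against 41.8% of 3414 non-cycling cells, a difference of 11.0 points (3.2 to 18.7). At steady state it was detected in 54 of 137 cycling cells, 39.4% (31.2 to 48.1), against 34.3%, a difference of 5.1 points whose interval (−3.1 to 13.9) included 0. Its level was 255 CPM in cycling and 238 in non-cycling cells at day 11. At steady state the level was 149 and 180.3 CPM, the reverse of the order of the shares, so no order of these classes is read. Without thinning Ccr2 was found in 62.6% of the steady-state and 70.6% of the day 11 cycling cells. Free RNA could be read in only 23 day 11 cells with low C1q and lymphoid, endothelial or fibroblast markers: none held Timd4 or Lyve1, which allows up to 13%, and 14 held Ccr2. Lymphoid cells can express Ccr2 themselves, so these cells give no background for it.

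Gpnmb, a transmembrane glycoprotein of lipid-laden macrophages, went the other way. It (ENSMUSG00000029816, chr6:49036546-49070929) was detected in 18 of 163 day 11 cycling cells, 11.0% (6.68 to 16.9), and in 26.0% of the non-cycling cells, a difference of −15.0 points (−19.2 to −9.1). Its level was 45.9 CPM against 186 CPM. At steady state it was found in 3 of 137 cycling cells (2.19%) and 1.95% of non-cycling cells, too few to compare. A single cell held 43 of the 115 Gpnmb UMIs of the day 11 cycling cells, and without it the level was 29.0 CPM.

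MHC class II RNA was lower in dividing cells at steady state. The sum of H2-Aa, H2-Ab1 and H2-Eb1 per 10000 UMIs had a median of 166 in cycling cells (quartiles 64.0 and 282) and 246 in non-cycling cells (82.0 and 414), and 30.7% of cycling against 49.4% of non-cycling cells lay above 246, a difference of −18.8 points (−26.4 to −10.2). At day 11 the medians were 178 (45.0 and 340.0) and 165 (20.0 and 418), and 38.0% and 41.4% lay above the same value, a difference of −3.4 points (−10.6 to 4.5). The value of 246 is the median of the steady-state non-cycling cells. It cuts a range and does not mark a type: 16 of 137 cycling cells at steady state and 12 of 163 at day 11 lay within 10% of it. The highest cycling cell had 552 at steady state and 642 at day 11, and the highest non-cycling cell 792 and 994.

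**Figure D2:**
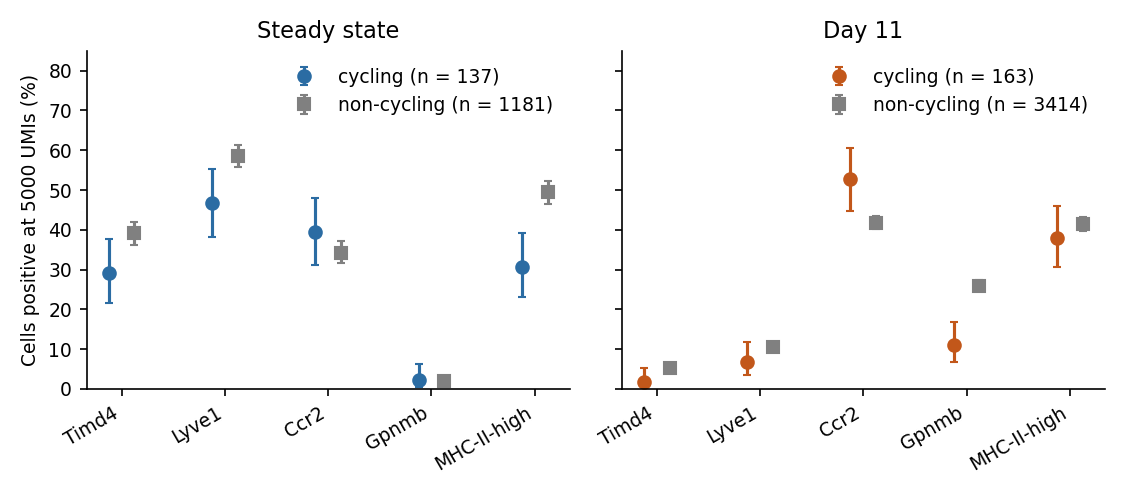
Share of cells (vertical axis, percent) with a UMI of Timd4, Lyve1, Ccr2 or Gpnmb, or with MHC class II RNA above 246 per 10000 UMIs, after thinning to 5000 UMIs. Coloured circles are cycling and grey squares non-cycling cells, with 95% Clopper-Pearson intervals. Timd4 and Lyve1 stand high at steady state and low at day 11, and Gpnmb at day 11 is lower in cycling cells (11.0% against 26.0%).

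**Figure D3:**
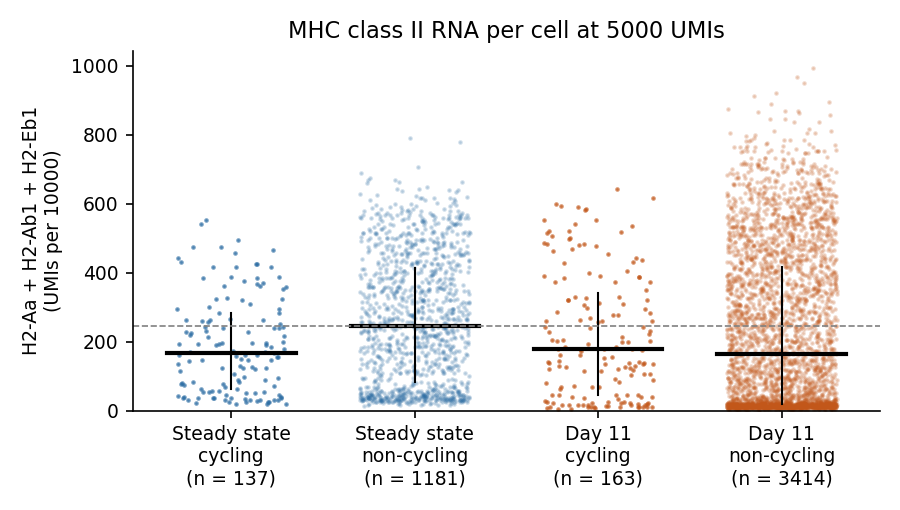
Sum of H2-Aa, H2-Ab1 and H2-Eb1 per 10000 UMIs (vertical axis) in each thinned cell of the 4 classes. Points are cells, thick lines medians, thin lines the range between quartiles, and the dashed line the value of 246. The steady-state cycling median (166) lies below the non-cycling one (246), and the day 11 medians (178 and 165) lie close together.

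The dividing cells were not of 1 identity. At steady state 37.2% carried Timd4 or Lyve1 without Ccr2 and Gpnmb, 20.4% carried Ccr2 or Gpnmb without Timd4 and Lyve1, 21.2% carried both kinds and 21.2% neither. At day 11 the same shares were 5.52%, 57.1%, 1.23% and 36.2%. These classes move with depth: without thinning 30.2%, 13.7%, 51.1% and 5.04% were found at steady state, where cells with both kinds became the most frequent, and 4.71%, 64.7%, 11.8% and 18.8% at day 11. Doublet scores were highest in 7 of the 137 and 18 of the 163 cells, of which 1 and none carried both kinds, and without them that class was 21.5% and 1.38%. A cell with no UMI of a marker may still express it, so the share with neither kind is an upper value. Timd4 and Ccr2 together were found in 12 of 137 cells at steady state and 0 of 163 at day 11, and without thinning in 52 of 139 and 5 of 170 (2.94%).

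MHC class II split these identities among the dividing cells as well. At steady state Timd4 was detected in 9.52% of the 42 cycling cells above the MHC class II value and in 37.9% of the 95 below it, and Ccr2 in 61.9% and 29.5%. At day 11 Ccr2 was detected in 80.6% of the 62 cells above it and 35.6% of the 101 below it. The non-cycling cells had the same order: 24.3% and 53.6% for Timd4 at steady state, 50.2% and 18.8% for Ccr2 at steady state, and 66.9% and 24.0% for Ccr2 at day 11.

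Read the other way, the share of dividing cells differed between identities. At steady state 6.55% (4.72 to 8.81) of cells with Timd4 and 9.83% (8.04 to 11.9) of cells without it were cycling, with intervals that overlapped, 6.84% (5.31 to 8.65) of cells with Lyve1 and 11.0% (8.74 to 13.7) of cells without it, and 5.61% (4.07 to 7.5) of MHC class II-high cells against 11.2% (9.15 to 13.5) of the rest. For Lyve1 and MHC class II the intervals did not overlap. Without thinning the Timd4 and Lyve1 differences turned round, to 2.2 and 0.8 points more cycling cells among those with the gene. At day 11 1.90% (1.13 to 2.99) of Gpnmb-positive and 5.15% (4.36 to 6.03) of Gpnmb-negative cells were cycling, and 5.33% (4.28 to 6.53) of Ccr2-positive and 3.58% (2.84 to 4.46) of Ccr2-negative cells. The Gpnmb intervals did not overlap and the Ccr2 intervals did.

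The reporter gave few molecules. TdTomato RNA was found in 23 of 139 cycling cells at steady state (16.5%) and 12.5% of non-cycling cells, with levels of 9.16 and 13.6 CPM (ratio 0.674, 0.426 to 1.02). At day 11 it was found in 8 of 170 cycling cells (4.71%) and 1.31% of non-cycling cells, with levels of 3.19 and 1.48 CPM (ratio 2.16, 0.890 to 4.57). Both ratios had intervals that included 1, and the unthinned shares compare cells of different depth.

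Across all genes, dividing cells of the infarcted heart carried less RNA of resident macrophage genes, which made up 13 of the 63 genes lower at day 11. Among 2961 genes at 50 CPM or more in either library, 26 were at least 2-fold higher at day 11 (0.878%) and 63 at least 2-fold lower (2.13%). In non-cycling cells the shares were 1.82% and 2.68%. Of the 26 higher genes 25 differed in the same direction in non-cycling cells, 23 of them at least 2-fold, and of the 63 lower genes all 63 did, 46 of them at least 2-fold. The cells of both classes came from the same libraries, so this is no independent repeat.

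Of 17 measured genes of a resident macrophage list, 13 were at least 2-fold lower at day 11 in dividing cells and none higher, with a median log2 ratio of −1.54 against 0.04 for all genes. The list holds 20 genes, and 5 reached 50 CPM at steady state only. Of the 12 that reached it in both libraries 8 were lower, against 1.18% of all genes measured so. Timd4 was 15.8-fold lower (9.03 to 30.1), Lyve1 6.55-fold lower (5.24 to 8.28) and the chemokine Ccl24 6.59-fold lower (5.42 to 8.07). Folr2, a folate receptor, was detected in 95% of the steady-state and 52.9% of the day 11 cells and was 4.06-fold lower. Cd163, the haemoglobin scavenger receptor, was 4.53-fold lower, the lectin Mgl2 3.82-fold, the carbonyl reductase Cbr2 3.89-fold and the coagulation factor gene F13a1 3.48-fold. Outside this list Retnla, a secreted resistin-like factor, had 491 CPM in steady-state cells and 27.9 in day 11 cells, 17.6-fold lower (13.8 to 22.7). The iron exporter Slc40a1 (6.11-fold) and the transcription factor Klf2 (4.03-fold) were also lower.

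Genes higher at day 11 included Fn1, Spp1, Ms4a7 and Fabp5. Of 18 genes of a monocyte-derived list 8 were measured, 4 of them only through day 11. At least 2-fold higher were 4 (Clec4d, Fn1, Il1b and Saa3) and none was lower, against 0.878% higher over all genes. Of the 4 that reached 50 CPM in both libraries only Il1b was higher, against 0.314% of all genes measured so. The calls of Clec4d, Il1b and Saa3 each rested on 1 cell: without it Clec4d was at 49.9 CPM and Saa3 at 29.1 CPM, under the minimum, and Il1b was 1.89-fold higher. Of 13 measured lipid-associated genes 4 were higher (Cd9, Fabp5, Spp1 and Trem2) and 1 lower (Cd36). Without the top cell of each gene these 5 remained past 2-fold. Of the 12 lipid-associated genes that reached 50 CPM in both libraries 3 were higher (Spp1, Cd9 and Trem2) and 1 lower. Fibronectin (Fn1) had 157 CPM in day 11 cells and 17.6 in steady-state cells, 8.94-fold higher (6.61 to 12.3). Osteopontin (Spp1) was at 429.8 and 63.4 CPM, 6.78-fold higher (5.77 to 8.01), and was detected in 85.3% of the day 11 cells. The lectin receptor Clec4d was 7.73-fold higher, the potassium channel Kcnn4 4.93-fold, the chemokine Ccl8 4.75-fold, Tmem119 4.26-fold, Ms4a7 2.98-fold and the fatty acid binding protein Fabp5 2.92-fold. F11r (3.61-fold), Olfml3 (2.62-fold) and Cd72 (2.47-fold) were also higher.

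Single cells set a few of these sums. Saa3 had 387 UMIs at day 11 and none at steady state, at least 140.5-fold higher against a floor of 3 counts over the group, but 315 of the UMIs lay in 1 cell, and without it the bound was 26.5-fold. Lyz1 was 3.96-fold lower at day 11, and 147 of its 341 steady-state UMIs lay in 1 cell, without which it was 2.28-fold lower. For Ccl8, 153 of 554 day 11 UMIs lay in 1 cell, without which it was 3.46-fold higher. Ccl8 was detected in 36.5% of the day 11 cycling cells and in 41.0% at steady state, so its higher sum did not come with more positive cells.

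Spp1 and Fabp5 differed less between the conditions in dividing than in non-dividing cells. Spp1 was 6.78-fold higher in cycling and 18.1-fold higher in non-cycling cells, and Fabp5 2.92-fold and 11.1-fold. Of the lipid-associated genes 10 of 16 measured were at least 2-fold higher at day 11 in non-cycling cells, against 1.82% of all genes. Of these 16, 5 reached the minimum only at day 11. Of the 11 that reached it in both libraries 5 were higher, against 0.825% of all genes measured so. Over the 13 lipid-associated genes measured in both classes, the median log2 ratio was 1.27 in non-cycling and 0.83 in cycling cells, with 7 and 4 at least 2-fold higher. Slc40a1 differed more in dividing cells (6.11-fold lower against 2.75-fold). Other named genes went either way. Timd4 was 15.8-fold lower in dividing and 7.96-fold lower in non-dividing cells, and Ms4a7 was 2.98-fold and 4.82-fold higher. Ccl8 and Lyz1 also differed more in dividing cells, with sums set in part by 1 cell. No test of these differences was possible.

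**Figure D4:**
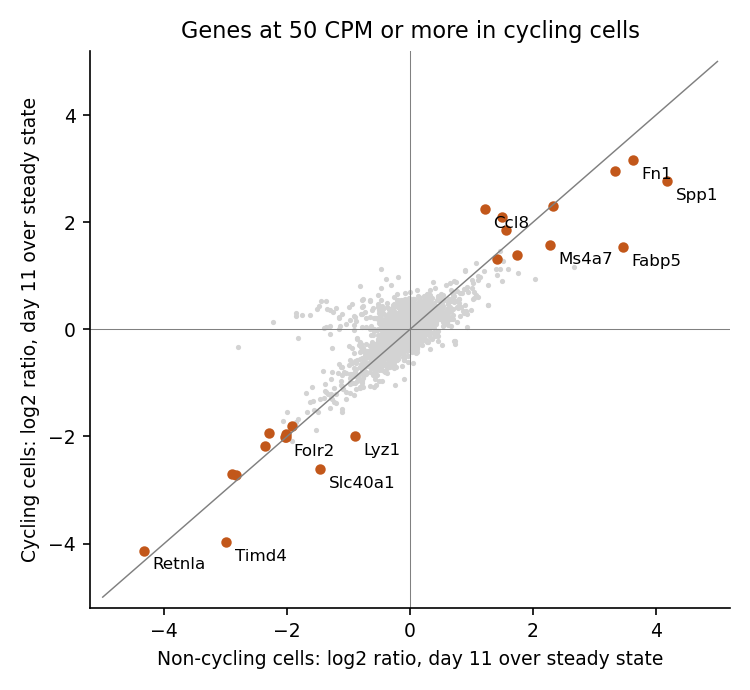
log2 ratio of day 11 over steady state in non-cycling (horizontal axis) and cycling cells (vertical axis) for genes at 50 CPM or more in cycling cells. Orange points are the genes named by the rule, and Saa3, with no UMI in steady-state cycling cells, is not drawn. Most named genes lie near the diagonal, while Spp1 and Fabp5 lie below it.

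Dividing and non-dividing cells of the same library were also set side by side, as a description. Among 2908 genes measured at steady state 178 were at least 2-fold higher (6.12%) and 9 lower (0.309%), and among 2897 at day 11 258 were higher (8.91%) and 21 lower (0.725%). These counts use cells chosen by genes of the same programme, most of those genes reach 50 CPM in the cycling class only, and nothing is read from them. In both libraries together 173 of 3111 genes were at least 2-fold higher (5.56%). Of the mitosis list outside the rule, 33 of 33 measured genes were higher at steady state and 38 of 39 at day 11, of the replication list 15 of 16 and 18 of 18, and of the histone list 5 of 5 and 6 of 7. Of the mitosis genes 32 of the 33 and 37 of the 39 were measured through the cycling cells only, so their counts follow from the minimum. Esco2, a cohesin acetyltransferase, was at 57.5 CPM in cycling and 0.533 in non-cycling cells at steady state, and at 59.9 and 0.242 at day 11. The DNA glycosylase Neil3, the kinase Melk, the kinetochore gene Casc5 and the spindle genes Ckap2 and Dlgap5 were between 44.9 and 67.1-fold higher at steady state and between 54.4 and 273-fold at day 11. Fam64a, Lockd, Mxd3 and Shcbp1 were between 38.7 and 66.2-fold higher at steady state.

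Cdkn2c and Cdkn2d, 2 genes for inhibitors of the early cycle kinases, stood higher in dividing than in non-dividing cells. Cdkn2c (p18) was at 232 CPM in cycling cells of both libraries, against 32.9 in non-cycling cells at steady state and 20.9 at day 11. Cdkn2d (p19) was at 103 CPM against 20.5 at steady state and at 136 against 18.0 at day 11. They were the 2 genes of a cycle control list of cyclins, kinases and inhibitors that were at least 2-fold higher, out of 10 measured at steady state and 9 at day 11, and none was lower. Over all genes the higher shares were 6.12% and 8.91%. Both genes reached 50 CPM in the cycling cells only. Of the genes of this list that reached it in both classes, 7 at steady state and 5 at day 11, none was 2-fold higher or lower. The D-type cyclin Ccnd2 was at 71.1 CPM in cycling cells at steady state and 35.1 at day 11. In non-cycling cells Ccnd2 was also at least 2-fold lower at day 11, so this was not particular to dividing cells.

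In thinned dividing cells the mitosis list gave more UMIs than the replication list in 113 of 137 cells at steady state, 82.5% (75.1 to 88.4), and in 133 of 163 at day 11, 81.6% (74.8 to 87.2). The median was 25 mitosis and 8.00 replication UMIs per cell at steady state and 31.0 and 11.0 at day 11. The intervals of the 2 libraries overlapped. The lists differ in length and expression, so the shares describe the lists and are not phase calls.

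Several lipid-associated genes were lower in dividing cells at day 11. Of 16 measured genes 7 were at least 2-fold lower (Apoe, Cd63, Ctsd, Ctsl, Fabp5, Gpnmb and Syngr1) and none higher, with a median log2 ratio of −0.95 against 0.11 for all genes, of which 0.725% were lower. Gpnmb, Syngr1 and Acp5 reached 50 CPM in non-cycling cells only. Of the 13 that reached it in both classes 5 were lower, against 0.571% of all genes measured so, and their median was −0.90. The lipid carrier Apoe was at 19793.3 CPM in cycling and 43763.3 in non-cycling cells, the lysosomal protease Ctsd at 841 and 2284.3, and Fabp5 at 117 and 369. At steady state none of 12 measured genes was 2-fold lower, and the median log2 ratio was −0.17. Retnla and the metabolic enzyme Idh1 were the genes at least 2-fold lower in dividing cells of both libraries, 2 of 3111 (0.0643%), with Retnla 2.39-fold lower at steady state and 2.09-fold lower at day 11. Idh1 in both libraries and Retnla at day 11 reached 50 CPM in non-cycling cells only.

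The medians of other lists of macrophage genes were lower too. The median log2 ratio of cycling over non-cycling cells was −0.24 and −0.23 for the macrophage list, −0.41 and −0.37 for the resident list and −0.41 and −0.17 for MHC class II genes, at steady state and day 11. The summed level of the macrophage list was 21651.5 CPM in cycling and 29323.7 in non-cycling cells at steady state, and 19106.9 and 31207.2 at day 11. Lyz2, lysozyme, made up most of each sum and of its difference, with 13946.9 and 20299.5 CPM at steady state and 12036.3 and 22085.3 at day 11. Without it the sums were 7704.5 and 9024.1, and 7070.6 and 9121.9. In this list 11 of 12 genes had a ratio below 1 at steady state, all but Cd68, and 9 of 12 at day 11, all but Cd14, Aif1 and Cd81. Of the 11 at 50 CPM or more, none was 2-fold higher or lower in either library. The share of all genes with a ratio below 1 was not counted, and their median log2 ratio was 0.06 at steady state and 0.11 at day 11. Cell cycle list genes took 1.44% and 1.73% of the UMIs of cycling cells and 0.180% and 0.174% of those of non-cycling cells. These levels moved with the resident, lipid and MHC class II values, and their part in those results was not tested.

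**Figure D5:**
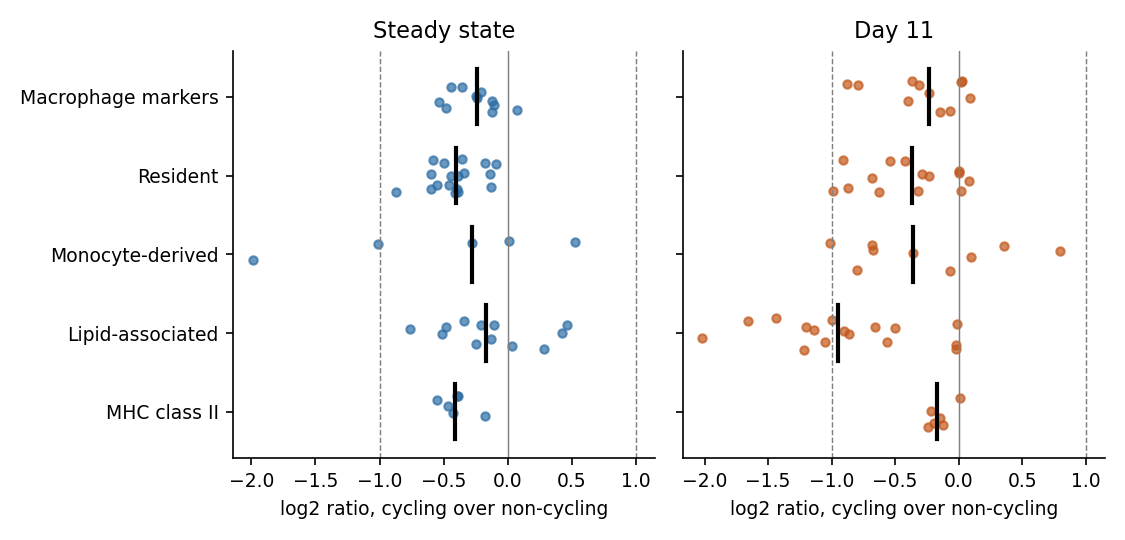
log2 ratio of cycling over non-cycling cells (horizontal axis) for each gene at 50 CPM or more of 5 lists, at steady state (left) and day 11 (right). Points are genes, black bars medians and dashed lines 2-fold differences. The lipid-associated genes have a median of −0.17 at steady state and −0.95 at day 11.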

How the data were processed

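Single-cell RNA was measured with 10x Chromium v2 3′ kits, per the labels' protocols, in 3 libraries of sorted mouse heart cells. The authors deposited raw UMI counts per gene and cell barcode (27998 shared genes and 3 reporter entries), made with Cell Ranger and STAR on mm10 per the submitters' processing notes. The sources used here give neither their versions nor the rule for calling cells. Totals were 23711707 UMIs in 1806 barcodes at steady state, 45177529 in 4697 at day 11 and 14388327 in 1780 in the macrophage and dendritic cell library.

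Cells were kept and classed as the opening of the results states. Steady-state and day 11 barcodes shared 8 sequences, none in a cycling cell. A gene's CPM is its UMI sum in a class over all UMIs of that class, reporters excluded, times 1000000. Ratios have exact conditional binomial intervals, shares exact Clopper-Pearson intervals and differences of shares Newcombe intervals, all at 95%. Cells were thinned without replacement (seed 1). Called genes differed at least 2-fold and had 50 CPM or more in either class. Intervals treat UMIs and cells as independent, and no spread between animals could be measured.

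Named genes were the rule and identity genes, the 12 per direction between libraries whose interval bound lay farthest from 1 (a UMI in 10% of cells of the higher library), the 10 per direction with the largest smaller fold between classes in both libraries, and list members. Members and lists were chosen with earlier results of these data known. Doublets were kept, as the rule does. Scrublet in scanpy 1.11.5, removing the 25 and 175 barcodes with the highest scores, would have taken 7 of 139 (5.04%) and 19 of 170 (11.2%) cycling cells and 0.853% and 3.67% of non-cycling cells. Its automatic threshold marked 6 and 0 barcodes. Positions came from the GENCODE vM21 annotation. The scripts (Python 3.11.15, numpy 2.4.6, scipy 1.17.1) were tested on simulated data.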

Additional observations from a re-analysis of the deposited data

Results flagged for a closer look

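Of 264 list genes, those that reached 50 CPM in a class of each library were compared. Of these, 9 outside the cell cycle lists had counting intervals on opposite sides of 1 in the classes or libraries compared. A further 29 were rule genes or members of the mitosis, replication, histone and cycle control lists. The rule selects on genes of that programme, and they are not described. None of these differences was tested across animals.

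Spp1 was 1.34-fold higher in cycling than non-cycling cells at steady state and at a ratio of 0.501 at day 11, and the protease Mmp12 at 1.22 and 0.632. A single cell held 44 of the steady-state Mmp12 UMIs, and without it that ratio was 0.928, on the same side of 1 as at day 11. The monocyte gene Plac8 had a ratio of day 11 over steady state of 1.91 in cycling cells and 0.765 in non-cycling cells. Of its 140 UMIs in day 11 cycling cells 91 lay in 1 cell, and without it the ratio was 0.674, in the same direction as in non-cycling cells. The transcription factor Cebpa had 0.748 and 1.08, and the growth factor Igf1 0.814 and 1.14. The MHC class II genes had ratios near 1: H2-Aa 1.07 and 0.88, H2-Ab1 1.06 and 0.898, H2-Eb1 1.07 and 0.883, and the invariant chain Cd74 1.14 and 0.91.

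Cells outside the rule also held the cycle programme. In the macrophage and dendritic cell library 12 of 785 C1q-high cells met it, 1.53% (0.792 to 2.66). That library differs in genotype and gate. It held 84 further cycling cells below the C1q minimum, of which 77 had a UMI of Ccr2, 47 of Flt3 and 44 of Xcr1. In the day 11 library 10 cells had 6 or more cycle genes and C1q below the minimum, between 3.53 and 37.7 per 10000 UMIs. Of these, 9 had a UMI of Ccr2, 5 of Flt3 and none of Timd4.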

How the results depend on the processing

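No paired analysis was possible because each group has 1 library and the labels give no replicate numbers. Alternatives covered cycle gene and C1q minimums, doublets, mitochondrial share, thinning, CPM minimum and totals. Of the shares, their differences and ratio, and the gene counts, 361 values stayed within the main counting interval or within 1.5 times the main count. Another 42 moved. Ratios of single genes were counted apart: 695 stayed within the main interval, 51 moved and 2 reversed (Plac8 and Mmp12). Values without the cell cycle lists before thinning and without the top cell of a gene, with 50 CPM asked for in both classes, and of the marker classes were added after the data had been seen. Depth mattered most. Without thinning, 4 values reversed: cycling minus non-cycling at steady state was 9.7 points for Timd4 and 4.4 for Lyve1, and the cycling share of cells with minus without the gene was 2.2 and 0.8 points. The shares then were 63.3% for Timd4, 72.7% for Lyve1 and 62.6% for Ccr2 at steady state, and 15.3% for Lyve1, 70.6% for Ccr2 and 24.7% for Gpnmb at day 11. The differences were 17.8 points for Ccr2 at steady state and 2.0 for Lyve1, 22.4 for Ccr2 and −6.7 for Gpnmb at day 11, and by identity 0.5, 3.2 and −1.2 points for these genes at day 11. The Lyve1 values at day 11 thereby changed sign. Both kinds of marker were then found in 51.1% and 11.8%, neither in 5.04% and 18.8%, and Ccr2 or Gpnmb alone in 13.7% at steady state. Thinned to 3000 UMIs, the shares were 20.1% for Timd4, 35.3% for Lyve1 and 25.2% for Ccr2 at steady state, and 42.9% for Ccr2 and 6.47% for Gpnmb at day 11. Over 11 settings, the main one included, the MHC class II-high difference at steady state stayed between −19.6 and −17.5 points, Ccr2 at day 11 between 8.7 and 22.4 and Gpnmb at day 11 between −15.5 and −6.7, while Ccr2 at steady state ran from −1.5 to 17.8. The day 11 cycling share was 3.0% with 8 or more cycle genes and 4.78% with 3 or more in thinned cells. With a minimum of 20 CPM, 51 genes were higher and 150 lower at day 11 in cycling cells, 339 higher and 19 lower in cycling than non-cycling cells at steady state, and 452 and 43 at day 11. With 100 CPM the counts were 12, 39, 97 and 5, and 145 higher at day 11. With 50 CPM in both classes they were 8, 30, 38 and 2, and 65 and 13. Without 1 cell the Plac8 ratio turned to 0.674 and the Mmp12 ratio to 0.928.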

Other observations

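None of 6 measured interferon-stimulated genes was 2-fold different at steady state or day 11, with median log2 ratios of −0.05 and 0.08. Of the glycolysis genes, none of 10 measured was 2-fold different at steady state, and Aldoa was lower among 9 measured at day 11. None of 14 immediate early and heat shock genes differed 2-fold between the classes in either library, with medians of −0.14 and −0.22. Over all genes 6.12% were higher and 0.309% lower in cycling cells at steady state, and 8.91% and 0.725% at day 11. With so few genes per list nothing is read from these counts. Between libraries, Hspa1a and Hspa1b were at least 2-fold lower at day 11 in cycling cells and in non-cycling cells. Over all genes 2.13% and 2.68% were lower in these classes.

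Spn (CD43) belongs to the non-classical monocyte list. It was 3.85-fold higher in cycling than non-cycling cells at steady state (71.1 against 18.5 CPM). At day 11 it was 4.16-fold higher (103 against 24.8 CPM). It reached 50 CPM in cycling cells only, and it was chosen for mention after its values were seen. The chemokine Ccl17 had 206 UMIs in steady-state cycling cells and 0 at day 11, and 186 of the 206 lay in 1 cell. It was also chosen after its values were seen.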
